A study of Mus musculus with 12 samples.

Results

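The comparison described here set cardiomyocytes of sham-operated mouse hearts injected with JV001 against those of sham-operated hearts injected with saline, in 6 of the 12 libraries of the series. It asks what the injection did to gene expression without kidney disease. The groups were taken from the sample titles: 3 libraries of sham JV001 (sham operation, 12 weeks, JV001 injection) and 3 of sham saline (sham operation, 12 weeks, saline injection). The other 6 libraries, used for the shared estimate of spread and for one contrast, came from a model of chronic kidney disease (CKD): 3 of CKD JV001 (AngII, high salt diet and uninephrectomy for 12 weeks, JV001 injection) and 3 of CKD saline (the same treatment with saline, no duration given). All groups were C57BL6 with genotype WT, and polyadenylated RNA of isolated cardiomyocytes was sequenced. JV001 is a code name; the series title calls it a gene therapy for recapping telomeres, and what it carries, its dose and its route were not stated in the labels. Age and sex were not given, nor whether libraries came from separate animals, so the p-values rest on differences among libraries that may be technical repeats.

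Telomeres are the repeated ends of chromosomes. The shelterin complex covers them and keeps the ends from being read as broken DNA. When the cap is lost, the DNA damage response can signal through p53, and telomere damage has been described in heart muscle cells that no longer divide. Injected vectors can also be sensed by innate receptors for foreign nucleic acid, which switch on interferon-stimulated genes. The gene groups below follow these roles, then the contractile, electrical and metabolic programmes of the cardiomyocyte.

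The libraries held 34128017, 34465822 and 32684117 counted reads in sham JV001 and 33129654, 36979426 and 37000337 in sham saline. Levels are given as counts per 1e6 counted reads (CPM) with TMM scaling, a method that aligns libraries by their shared genes. A count of 0 allows up to 3 reads, which is 0.0777 to 0.0964 CPM in the sham libraries and covers counting error only. Cardiomyocyte genes were abundant in every library: the cardiac troponin T gene Tnnt2 had 8440, 8420 and 8880 CPM in sham JV001 against 7110, 10400 and 8880 CPM in sham saline. The libraries did not sort cleanly by group, and sham saline library 1 stood furthest from the others of its group. Sham saline library 1 was nearest to sham JV001 library 2 (Spearman 0.983 over genes) and less near to sham saline libraries 2 and 3 (0.964 and 0.967), which were nearest to each other (0.986). Genes of the mitochondrial genome took 34.73% of its reads, against 18.82% and 19.52% in sham saline 2 and 3 and 25.51 to 28.98% in sham JV001. Sham JV001 library 3 was about as near to sham saline library 3 (0.984) as to JV001 libraries 1 and 2 (0.985 and 0.983). Results that rest on single libraries are therefore also given without them, and the median of a gene list is followed by its leave-out range, the lowest and highest median when each of the 6 sham libraries was left out in turn.

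No gene passed the adjusted threshold of edgeR between sham JV001 and sham saline, and DESeq2 called 3. Of 15004 genes tested by edgeR's quasi-likelihood test, 0 (0%) had a Benjamini-Hochberg adjusted p under 0.05, and the smallest adjusted p was 0.9997. Before adjustment 241 genes (1.61%) were higher and 185 (1.23%) lower in sham JV001 at p under 0.05. The 3 genes called by DESeq2, of 14839 (0.0202%), were all higher in sham JV001: Tmem100, Tmem164 and Tcf23. The CPM of the 3 sham JV001 libraries lay above all 3 sham saline libraries in 854 genes (5.69%) and below them in 1007 (6.71%).

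Most differences were small. The log2 fold change (sham JV001 over sham saline) was positive in 7381 genes (49.2%), with a median of -0.0056 over all genes. It was under 0.5 in size in 11891 genes (79.3%) and over 1 in 1082 (7.21%). Among the 7632 genes with a mean of at least 10 CPM, 93.5% were under 0.5 and 59 genes (0.773%) were over 1. In 6396 of these 7632 genes (83.8%) the 95% interval lay within a 2-fold change either way (log2 fold change between -1 and 1), so a larger difference was outside the interval; for the other genes the depth and spread did not bound it so closely. The libraries of the CKD groups, which share the estimate of spread, varied more: the median SD of log2 CPM over these genes was 0.131 in sham JV001, 0.175 in sham saline, 0.323 in CKD JV001 and 0.279 in CKD saline. Replicate 3 of both CKD groups stood apart in earlier results of these data. Without these libraries edgeR called 0 of 15285 genes, with a smallest adjusted p of 0.09723 and 1589 genes at an unadjusted p under 0.05. With the 6 sham libraries alone, edgeR called 0 of 14072 genes (smallest adjusted p 0.6797; 949 genes, 6.74%, at an unadjusted p under 0.05), DESeq2 called 37 and limma voom with library weights called 0.

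**Figure D1:**
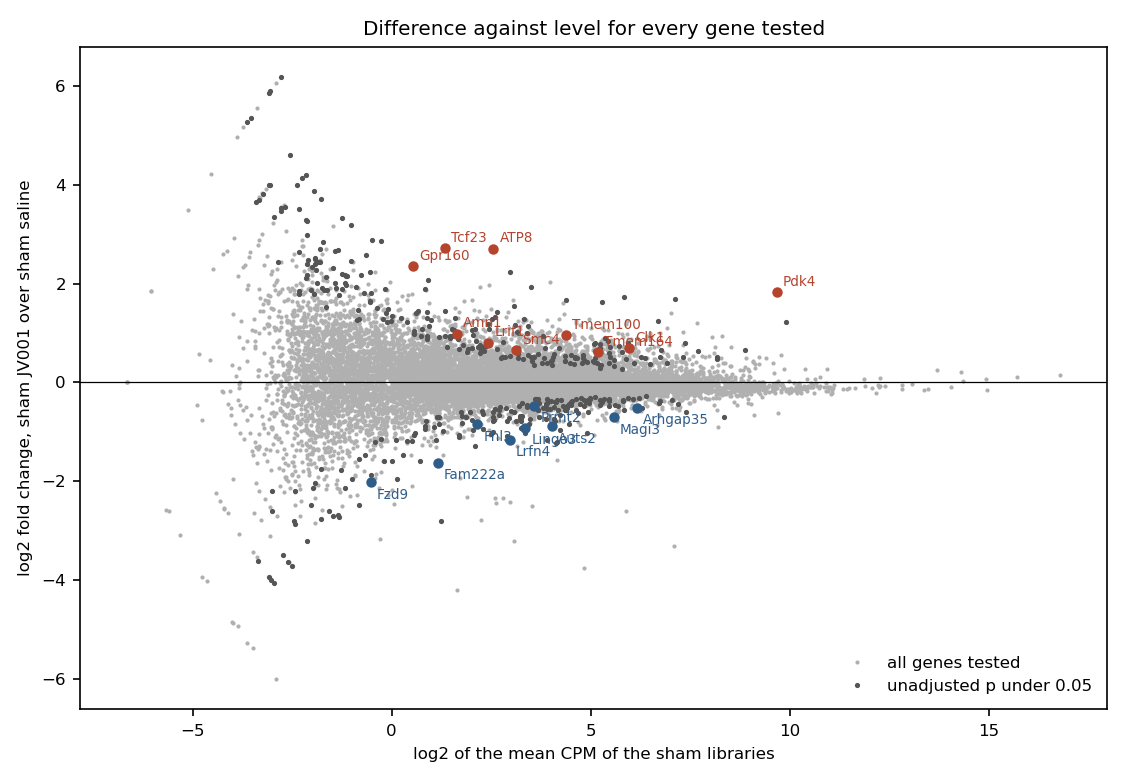
Each point is a gene, with log2 of its mean CPM over the sham libraries on the x axis and its log2 fold change, sham JV001 over sham saline, on the y axis. Dark points have an unadjusted p under 0.05, red and blue points are the 10 genes higher and 9 of the 10 lower in sham JV001 with the smallest p, and the spread narrows with level; Pdk4 stands out among abundant genes at 1.83.

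The 20 genes with the smallest unadjusted p were taken up, 10 per direction, among genes reaching 1 CPM in either group. They were ranked on this contrast in these libraries. Their p-values, leave-out results and separation of groups therefore follow in part from the ranking and are given as a description only. All 20 had an edgeR adjusted p of 0.9997, and all 20 kept their direction and an unadjusted p under 0.05 when each of the 6 sham libraries was left out in turn. In all 20 the groups did not overlap.

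Among the genes higher in sham JV001, Tmem100, a small membrane protein known as a target of BMP signalling in endothelium, had 31.4, 22.7 and 27.7 CPM in sham JV001 against 14.6, 13.4 and 14.2 CPM in sham saline. That is a fold of 1.94 (95% interval 1.51 to 2.49), with an unadjusted p of 0.000108 by edgeR and an adjusted p of 0.00125 by DESeq2. The sham saline libraries were close to each other, and the lowest JV001 library was well above them. Tmem164, an acyltransferase of ether lipid synthesis, had 45.9, 42.2 and 43.4 CPM in sham JV001 against 29.2, 27.9 and 29.1 CPM in sham saline, a fold of 1.53 (1.24 to 1.87; DESeq2 adjusted p 0.00672). Both groups were tight, so this modest difference was large beside the spread within groups. Tcf23, a basic helix-loop-helix factor, had 6.49, 4.32 and 2.36 CPM in sham JV001 against 1.06, 0.398 and 0.544 CPM in sham saline, a fold of 6.6 (2.54 to 17.1; DESeq2 adjusted p 0.0293).

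Pdk4, the kinase that shuts off pyruvate dehydrogenase and so favours fat over glucose as fuel, was the most abundant of the 20. It had 2290, 540 and 994 CPM in sham JV001 against 446, 404 and 221 CPM in sham saline, a fold of 3.57 (1.69 to 7.54; unadjusted p 0.0032 by edgeR). JV001 library 1 was far above the other two, and without it the log2 fold change was 1.11, against 1.83 with it. Clk1, a kinase of splicing factors, had 88.6, 73.5 and 70.3 CPM in sham JV001 against 50.2, 44.6 and 48.7 CPM in sham saline (fold 1.62, 1.2 to 2.19). Smc4, a condensin subunit, had 11, 11.4 and 9.54 CPM in sham JV001 against 7.07, 6.9 and 6.45 CPM in sham saline. Lrif1, a chromatin protein that binds HP1, had 7.88, 6.79 and 5.79 CPM in sham JV001 against 4.15, 3.53 and 4.04 CPM in sham saline. These 3 nuclear proteins differed by 1.57- to 1.75-fold.

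The other members of the higher set were low in level. The orphan receptor gene Gpr160 had 2.84, 1.88 and 2.58 CPM in sham JV001 against 0.611, 0.398 and 0.415 CPM in sham saline (fold 5.11, 2.11 to 12.4). Amn1, known in budding yeast as an inhibitor of mitotic exit, had 4.02, 3.79 and 4.57 CPM in sham JV001 against 2.47, 2.02 and 1.76 CPM in sham saline. ATP8, a mitochondrial gene for an ATP synthase subunit, had 11.9, 12.7 and 6.0 CPM in sham JV001 against 2.64, 0.477 and 1.58 CPM in sham saline. ATP8 overlaps ATP6 on the mitochondrial genome, and how reads of overlapping genes were counted is not given, so its value is uncertain.

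Among the genes lower in sham JV001, Magi3, a scaffold protein of cell junctions, had the smallest p. It had 34.8, 36.8 and 37 CPM in sham JV001 against 60.5, 58.6 and 58.4 CPM in sham saline, a fold of 0.613 (0.489 to 0.767; unadjusted p 0.000539 by edgeR). Neither group spread by more than a few CPM. Arhgap35, a GTPase-activating protein, had 52.2, 66.1 and 58.6 CPM in sham JV001 against 81.9, 85.0 and 85.2 CPM in sham saline. Auts2, a transcription regulator best known in neurons, had 12.8, 10.2 and 11.1 CPM in sham JV001 against 26.7, 20.6 and 15.8 CPM in sham saline. The folds of these 3 genes were 0.54 to 0.702, and every sham saline library was above every JV001 library.

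The remaining genes of the lower set had fewer reads. Fzd9, a Wnt receptor, had 0.371, 0.196 and 0.242 CPM in sham JV001 against 1.19, 1.01 and 1.11 CPM in sham saline, the lowest fold of the set at 0.247 (0.115 to 0.528). Fam222a had 1.11, 1.15 and 1.0 CPM in sham JV001 against 3.63, 4.19 and 2.25 CPM in sham saline. Lrfn4 and Lingo3, both leucine-rich repeat membrane proteins, had folds of 0.448 and 0.53. Lrfn4 lies over Pcx in RefSeq, so reads of both genes may not be separable. Prmt2, an arginine methyltransferase, and Fhl3, a LIM-domain protein of muscle, had folds of 0.721 and 0.555. Of the 20 genes, 10 overlapped another gene in RefSeq, and counting by strand is not stated.

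**Figure D2:**
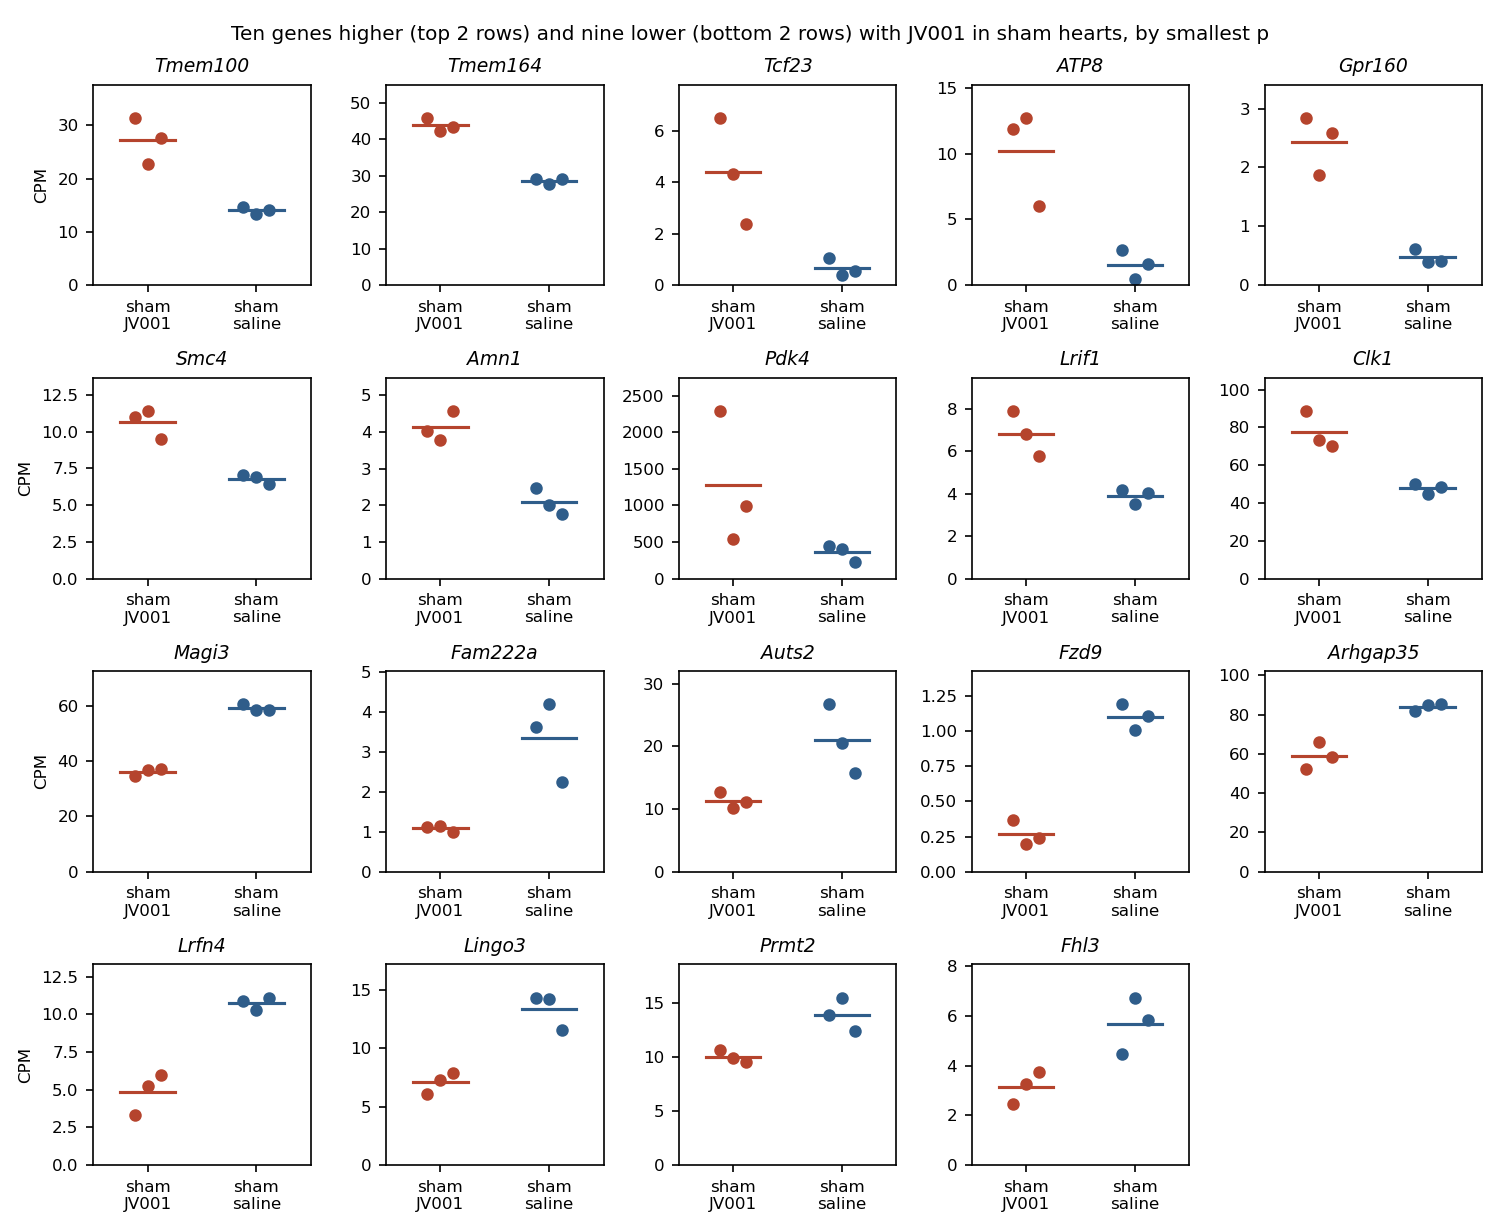
CPM (y axis, from 0) of 19 of the 20 genes in each library, sham JV001 at the left and sham saline at the right of every panel; points are libraries and bars are means of 3. No panel overlaps between groups, and Pdk4 shows the widest spread, from 540 to 2290 CPM in sham JV001.

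The 250 bases before the start of transcription are shown for 3 genes that were higher and for Magi3, the lower gene with the smallest p, to set their promoters side by side. They are from RefSeq (GRCm38.p6, a build other than the GRCm39 of the counts), run 5′ to 3′ on the gene's strand, and have capitals at every match of 5 motifs searched on both strands: the telomere repeat TTAGGG, the glucocorticoid receptor core AGAACA, the GC box GGGCGG, the forkhead motif GTAAACA and the E-box CACGTG.
Tmem164 (the upstream of 2 listed starts), chrX:142680097-142680346, plus strand: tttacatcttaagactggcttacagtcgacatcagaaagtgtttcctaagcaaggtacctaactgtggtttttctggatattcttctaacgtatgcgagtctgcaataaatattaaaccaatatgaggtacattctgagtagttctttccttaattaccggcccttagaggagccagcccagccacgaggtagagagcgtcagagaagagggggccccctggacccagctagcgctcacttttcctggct
Tcf23, chr5:30968427-30968676, plus strand: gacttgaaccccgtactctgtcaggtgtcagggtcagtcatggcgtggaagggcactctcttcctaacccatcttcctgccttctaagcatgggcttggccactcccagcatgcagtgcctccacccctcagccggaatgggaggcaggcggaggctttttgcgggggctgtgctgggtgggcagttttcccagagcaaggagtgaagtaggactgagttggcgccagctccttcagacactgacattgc
Pdk4, chr6:5496279-5496528, minus strand: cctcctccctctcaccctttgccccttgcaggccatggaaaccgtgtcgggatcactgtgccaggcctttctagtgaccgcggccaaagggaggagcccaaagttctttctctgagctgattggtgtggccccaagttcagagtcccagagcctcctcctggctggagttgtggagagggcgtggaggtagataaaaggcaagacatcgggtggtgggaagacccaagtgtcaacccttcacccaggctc
Magi3, chr3:104220407-104220656, minus strand: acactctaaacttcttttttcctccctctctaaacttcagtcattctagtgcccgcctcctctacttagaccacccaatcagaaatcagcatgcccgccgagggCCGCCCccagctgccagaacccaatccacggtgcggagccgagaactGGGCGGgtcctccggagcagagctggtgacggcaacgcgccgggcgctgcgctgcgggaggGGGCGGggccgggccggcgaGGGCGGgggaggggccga
The windows shown for Tmem164, Tcf23 and Pdk4 held none of the 5 motifs, and that of Magi3 held 4 GC boxes. The window of the other listed start of Tmem164, not shown, held 3 GC boxes. Of the 20 genes, 14 had a promoter in the RefSeq table, with 17 windows in all. A GC box was in 10 of the 17 windows, from 10 genes, beside 32.7% of all 32851 windows. TTAGGG was in 2 of the 17 (Fhl3 and Lrif1), beside 9.32% of all windows. The E-box was in 3 of the 17 (6.02% of all windows), and AGAACA (16.1%) and GTAAACA (3.17%) were in 0. A match is a string of letters and not a site shown to be bound.

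The genes for the telomere cap differed little. All 7 shelterin genes had a positive log2 fold change (median 0.13, leave-out range 0.08 to 0.15, against -0.0056 over all genes), 0 of 7 had an unadjusted p under 0.05, and in all 7 the groups overlapped. Terf2, which forms the protective loop at the telomere end, had 13.4, 10.9 and 14.1 CPM in sham JV001 against 11.9, 12.3 and 13.0 CPM in sham saline (log2 fold change 0.05 ± 0.14 SE). Terf1, the other protein that binds double-stranded repeats, had 4.51, 3.28 and 2.82 CPM in sham JV001 against 3.63, 2.94 and 2.02 CPM in sham saline (0.31 ± 0.43). Their levels crossed between the groups. Pot1a, which binds the single-stranded overhang, had 8.16, 8.36 and 9.94 CPM in sham JV001 against 8.87, 8.14 and 6.58 CPM in sham saline. Pot1b, its rodent paralogue, had 2.6, 3.48 and 2.79 CPM in sham JV001 against 4.24, 1.8 and 2.1 CPM in sham saline. Of the other subunits, Acd (TPP1) had a log2 fold change of 0.11 ± 0.25, Tinf2 (TIN2) 0.13 ± 0.19 and Terf2ip (RAP1) 0.06 ± 0.14. The signs of Pot1b, Terf2 and Terf2ip turned when single libraries were left out, with values down to -0.09, -0.03 and -0.01, and that of Terf2 also with limma voom (-0.000824).

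Telomerase was barely detected: Tert, its catalytic subunit, had 6, 0 and 0 reads in sham JV001 against 3, 1 and 4 reads in sham saline, and was not tested. Of the 23 genes tested for telomerase assembly and telomere replication, 12 had a positive log2 fold change (median 0.03, leave-out range -0.03 to 0.05). Only Nhp2, an H/ACA protein of the telomerase particle, had an unadjusted p under 0.05, where 1.23% of all genes were lower at that p. It had 8.6, 8.83 and 11.6 CPM in sham JV001 against 11.3, 15.7 and 13.3 CPM in sham saline (log2 fold change -0.47 ± 0.19), and the groups overlapped. The genes of 2 other H/ACA proteins lay the same way without passing, Gar1 at -0.46 ± 0.24 and Dkc1 at -0.26 ± 0.18. The 25 genes of DNA damage sensing and repair had a median of -0.02 (leave-out range -0.03 to 0.05), with 11 positive and 0 at an unadjusted p under 0.05.

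Targets of p53 were mixed. Of 24, 14 had a positive log2 fold change (median 0.14, leave-out range 0.04 to 0.21) and 3 had an unadjusted p under 0.05, all higher in sham JV001, where 1.61% of all genes were higher at that p. Bbc3 (PUMA), which promotes apoptosis, had 2.44, 3.42 and 2.03 CPM in sham JV001 against 1.96, 1.01 and 0.622 CPM in sham saline. Trp53inp1, a p53 cofactor, had 19.2, 8.8 and 7.48 CPM in sham JV001 against 8.32, 3.77 and 5.49 CPM in sham saline. Plk2, a stress-induced kinase, had 65.0, 46.0 and 28.6 CPM in sham JV001 against 35.1, 26.7 and 24.6 CPM in sham saline. Among these 3 the groups were apart only for Bbc3. Over the list they were apart in 4 genes, all higher in sham JV001 (5.69% of all genes): Bbc3, and Fas, Pmaip1 and Zmat3, which are named after their values were seen and did not pass. Cdkn1a (p21), named after its values were seen, had 81.4, 49.3 and 29.2 CPM in sham JV001 against 67.8, 17.2 and 8.18 CPM in sham saline, with sham saline library 1 inside the JV001 range. Of 25 genes of senescence and its secreted factors, 17 were positive (median 0.34, leave-out range 0.12 without sham saline library 2 to 0.76 without sham saline library 1). Among them Glb1, the lysosomal galactosidase used as a senescence stain, was lower, with 10.6, 14.1 and 12.6 CPM in sham JV001 against 16.7, 15.9 and 18.6 CPM in sham saline.

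With all libraries, interferon-stimulated genes and genes of inflammation had the highest medians among the 34 pathway lists, and few members had groups apart. Of 28 interferon genes tested, 27 had a positive log2 fold change, with a median of 0.87 against -0.0056 over all genes. None had an unadjusted p under 0.05 and in none were the groups apart. Oas2, a sensor of double-stranded RNA, had 52.7, 27.5 and 9.69 CPM in sham JV001 against 15.7, 6.63 and 7.2 CPM in sham saline (log2 fold change 1.61 ± 0.92). Ifi44 had 7.2, 4.51 and 1.64 CPM in sham JV001 against 2.83, 0.636 and 1.24 CPM in sham saline, and Xaf1 had 20.2, 13.5 and 5.09 CPM in sham JV001 against 9.22, 4.72 and 3.6 CPM in sham saline. JV001 library 1 was high and library 3 low for all of these. The summed CPM of the list was 515, 379 and 196 in sham JV001 against 289, 225 and 176 in sham saline. The median was 0.5 without JV001 library 1 and 1.21 without sham saline library 1.

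Among 19 sensors of nucleic acids and vectors, 15 were positive (median 0.43, leave-out range 0.26 without JV001 library 1 to 0.73 without sham saline library 1) and 0 had an unadjusted p under 0.05. Ifi207, a member of the interferon-inducible p200 family, had 15.2, 16.5 and 6.3 CPM in sham JV001 against 4.85, 5.09 and 1.97 CPM in sham saline. It was the only one of the list with the groups apart, where 5.69% of all genes were apart and higher. The endosomal RNA sensor Tlr7 had 1.21, 1.91 and 0.333 CPM in sham JV001 against 0.418, 0.53 and 0 CPM in sham saline. Its DNA-sensing relative Tlr9 was at most 0.505 CPM, with 0 reads in sham saline library 3. For antigen presentation 15 of 16 were positive (median 0.43). The leave-out range was 0.19 without sham saline library 3 to 0.98 without sham saline library 1, and without JV001 library 2 12 of 16 were positive (median 0.22). Nlrc5, which drives MHC class I genes, had 14.7, 8.38 and 4.45 CPM in sham JV001 against 5.01, 3.13 and 2.18 CPM in sham saline (log2 fold change 1.42 ± 0.61). The immunoproteasome subunit gene Psmb10 was lower, with 20.1, 22.6 and 25.1 CPM in sham JV001 against 28.1, 33.2 and 29.9 CPM in sham saline (-0.43 ± 0.16). These were the 2 members with an unadjusted p under 0.05 (2.84% of all genes in either direction).

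Of 24 genes of inflammation and NF-kB, 21 were positive (median 0.92, with 0.5 without JV001 library 2 and 1.4 without sham saline library 1). None had an unadjusted p under 0.05. In 1 (Il6) the groups were apart, where 5.69% of all genes were apart and higher. The cytokine gene Tnf had 4.39, 6.11 and 1.85 CPM in sham JV001 against 2.57, 2.39 and 0.648 CPM in sham saline. Socs3, a feedback inhibitor of cytokine signalling, had 174, 115 and 49.8 CPM in sham JV001 against 86.6, 63.8 and 26.8 CPM in sham saline. Il6 was at most 1.18 CPM, with 0.928, 1.18 and 0.424 CPM in sham JV001 against 0.225, 0.239 and 0 CPM in sham saline. Complement genes were positive in 14 of 17 (median 0.45; -0.13 without JV001 library 2 and 1.05 without sham saline library 1), so their direction rested on single libraries.

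Markers of other cell types also differed among libraries, and not in the same order as the interferon list. The isolated cells are cardiomyocytes by label, and transcripts of endothelium, macrophages and fibroblasts were present in every library; of 58 markers of endothelium, macrophages, fibroblasts, smooth muscle and atrial cells, only Bmp10 had 0 reads in a sham library, sham saline 2. All 12 endothelial markers were positive, with a median of 0.49 (leave-out range 0.2 without sham saline library 2 to 1.14 without sham saline library 1) and 0 at an unadjusted p under 0.05. Their summed CPM was 2020, 1820 and 1640 in sham JV001 against 2060, 587 and 868 in sham saline. Sham saline library 1 was thus as high as the JV001 libraries. Flt1, a VEGF receptor, followed this with 260, 214 and 172 CPM in sham JV001 against 184, 52.4 and 83.4 CPM in sham saline. In bulk RNA, fewer cells of a type and less RNA per cell cannot be told apart.

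All 13 macrophage and monocyte markers were positive (median 0.84, leave-out range 0.13 without JV001 library 2 to 1.2 without JV001 library 3), with summed CPM of 144, 287 and 86.7 in sham JV001 against 195, 118 and 41.0 in sham saline. Ccr2, the receptor of recruited monocytes, was the one member with an unadjusted p under 0.05, where 1.61% of all genes were higher at that p. It had 0.526, 1.21 and 0.394 CPM in sham JV001 against 0.0643, 0.239 and 0.155 CPM in sham saline. These are levels near the limit of a few reads. The complement component C1qa, made by macrophages, had 15.6, 27.3 and 8.6 CPM in sham JV001 against 13.9, 10.6 and 2.54 CPM in sham saline. For fibroblast markers 11 of 12 were positive (median 0.31), with summed CPM of 898, 1320 and 641 in sham JV001 against 1210, 817 and 317 in sham saline. The leave-out range of that median was 0.03 without sham saline library 3, where 7 of 12 were positive, to 0.71 without sham saline library 1. Smooth muscle and pericyte markers were positive in 7 of 11 (median 0.10), with summed CPM of 838 to 1000 in sham JV001 and 720 to 1070 in sham saline. Their direction turned with single libraries: the median was -0.08 without sham saline library 3 (3 of 11 positive), -0.02 without JV001 library 2 or sham saline library 2, and 0.42 without sham saline library 1. Atrial cardiomyocyte markers summed to 1530, 3280 and 907 CPM in sham JV001 against 4390, 428 and 1490 CPM in sham saline, and sham saline held both the highest and the lowest library. The part of these markers in the interferon, inflammation and complement values was not tested.

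**Figure D3:**
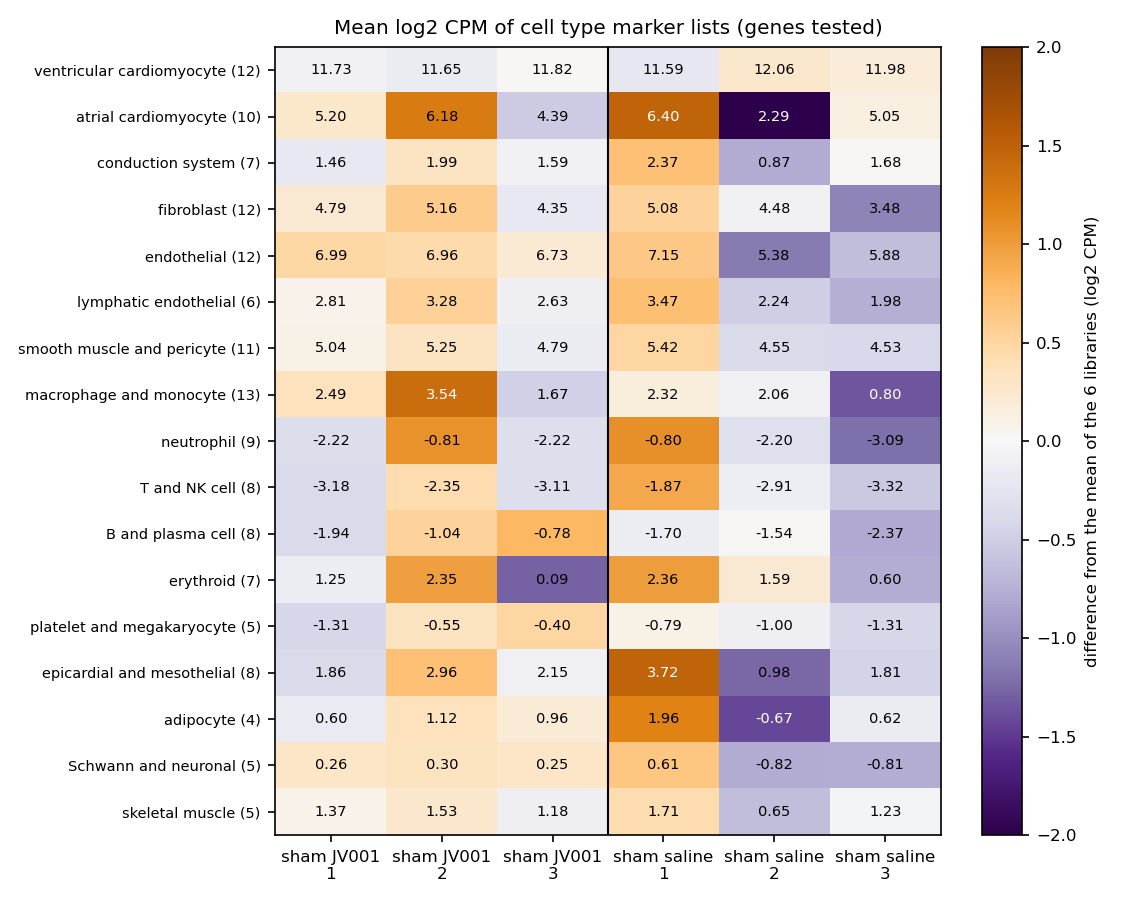
Mean log2 CPM of 17 cell type marker lists (rows, number of genes tested in brackets) in the 3 sham JV001 libraries (left of the line) and the 3 sham saline libraries (right); colour is the difference from the mean of the 6 libraries. Endothelial, fibroblast and atrial markers of sham saline library 1 lie with or above those of the JV001 libraries, while endothelial markers of sham saline 2 and 3 are at 5.38 and 5.88, below all others.

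Several stress-responsive lists had positive medians, and the JV001 libraries differed among themselves. Of 23 immediate early genes, which cell isolation also induces, 19 were positive (median 0.54, leave-out range 0.29 without JV001 library 1 to 0.83 without JV001 library 3). Egr1, a growth factor-induced transcription factor, had 751, 630 and 334 CPM in sham JV001 against 368, 459 and 265 CPM in sham saline (log2 fold change 0.65 ± 0.28). It was the only member with an unadjusted p under 0.05, where 1.61% of all genes were higher at that p. The list summed to 6210, 5130 and 2660 CPM in sham JV001 against 3320, 4110 and 2680 CPM in sham saline. JV001 library 3 was thus below all 3 saline libraries, and close to sham saline library 3. Of 17 glucocorticoid-responsive genes all 17 were positive (median 0.51, leave-out range 0.35 to 0.9). Of these, 2 were higher at an unadjusted p under 0.05 (1.61% of all genes), and in 5 the JV001 libraries lay above all saline libraries (5.69% of all genes). One of the 2 was Pdk4; the other, Zbtb16, a zinc finger repressor, had 309, 207 and 124 CPM in sham JV001 against 34.3, 59.5 and 105 CPM in sham saline (1.69 ± 0.68). Sgk1, a kinase that controls sodium transport, had 170, 150 and 106 CPM in sham JV001 against 125, 37.6 and 51.0 CPM in sham saline, and overlapped. The 17 genes summed to 4280, 2080 and 2090 CPM in sham JV001 against 1580, 1330 and 1190 CPM in sham saline. Pdk4 alone gave 2290, 540 and 994 CPM of the JV001 sums and 446, 404 and 221 CPM of the saline sums.

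Of 21 genes of the integrated stress and unfolded protein responses, 15 were positive (median 0.10, leave-out range 0.03 to 0.17). Herpud1, a part of the endoplasmic reticulum degradation machinery, had 354, 202 and 204 CPM in sham JV001 against 137, 174 and 178 CPM in sham saline. Chac1, which breaks down glutathione, had 14.9, 6.39 and 2.85 CPM in sham JV001 against 4.05, 1.78 and 4.17 CPM in sham saline. Both had an unadjusted p under 0.05, where 1.61% of all genes were higher at that p. The highest value of each was JV001 library 1. Antioxidant genes stayed near the median of all genes (10 of 22 positive, median -0.01, leave-out range -0.04 to 0.02). In 2 of them the JV001 libraries lay above all saline libraries (5.69% of all genes). Srxn1, which repairs oxidised peroxiredoxins, had 29.3, 30.3 and 29.4 CPM in sham JV001 against 19.3, 22.6 and 21.5 CPM in sham saline (0.49 ± 0.19). Hmox1, the haem-degrading enzyme, named after its values were seen, had 12.5, 13.3 and 8.97 CPM in sham JV001 against 7.52, 5.46 and 6.37 CPM in sham saline, and had an unadjusted p of 0.102 by edgeR. Heat shock genes were positive in 11 of 20 (median 0.02, leave-out range -0.03 to 0.12). Of 19 genes of apoptosis and necroptosis 13 were positive (median 0.25, leave-out range 0.15 without sham saline library 3 to 0.54 without sham saline library 1), among them the survival gene Bcl2l1 at 80.1, 46.0 and 37 CPM in sham JV001 against 40.2, 16.8 and 21.0 CPM in sham saline.

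With all libraries, ion channel and connexin genes were the pathway list with the lowest median. Of 24, 3 had a positive log2 fold change (median -0.37, leave-out range -0.41 to -0.24). At an unadjusted p under 0.05, 3 were lower and 1 was higher (1.23% and 1.61% of all genes), and in 8 the JV001 libraries lay below all sham saline libraries (6.71% of all genes). Gja1, the main gap junction protein of ventricular muscle (connexin 43), had 175, 278 and 292 CPM in sham JV001 against 403, 422 and 387 CPM in sham saline (log2 fold change -0.70 ± 0.23). Kcnj5, a subunit of the acetylcholine-activated potassium channel, had 61.2, 67.8 and 64.1 CPM in sham JV001 against 92.0, 89.8 and 96.1 CPM in sham saline (-0.53 ± 0.22). Kcnd2, a channel of the transient outward current, had 16.1, 17.8 and 16.9 CPM in sham JV001 against 24.7, 23.2 and 26.3 CPM in sham saline. Here sham saline library 1 lay with the other saline libraries. The exception was Kcnj2, the channel that sets the resting potential, with 51.9, 45.9 and 30.3 CPM in sham JV001 against 28.8, 21.2 and 24.1 CPM in sham saline (0.79 ± 0.31). None of these passed edgeR's adjusted threshold with the 12 libraries. DESeq2 on the 6 sham libraries alone, an alternative chosen after seeing the data, gave Kcnj5 an adjusted p of 0.0114. In the same libraries the adjusted p by edgeR was 0.718, and by DESeq2 with 12 libraries it was 0.9992.

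The contractile genes differed little. Of 25 sarcomere and Z-disc genes 1 was positive, but the median was only -0.10 (leave-out range -0.25 without sham saline library 1 to -0.02 without sham saline library 2), with 0 at an unadjusted p under 0.05. Myh6, the adult heavy chain, had 31100, 29300 and 29400 CPM in sham JV001 against 27400, 36600 and 35500 CPM in sham saline. Sham saline library 1 was below, and the other saline libraries above, all JV001 libraries. Calcium handling genes (median -0.06, leave-out range -0.15 to -0.01, 8 of 20 positive) and adrenergic genes (median -0.07, leave-out range -0.19 to -0.04, 5 of 20 positive) had 0 members at an unadjusted p under 0.05. In 3 adrenergic genes, Adcy5, Adra1b and Pde3a, the JV001 libraries lay below all saline libraries (6.71% of all genes). Their log2 fold changes were -0.26, -0.41 and -0.19, and they are named after their values were seen. Genes of hypertrophy and the fetal programme were positive in 5 of 23 (median -0.16), also with 0. Their leave-out range was -0.28 without sham saline library 1 to -0.06 without JV001 library 3, with 10 of 23 positive in each. Acta1, skeletal actin re-expressed under load, had 204, 105 and 302 CPM in sham JV001 against 224, 427 and 489 CPM in sham saline, and the cardiac factor Gata4 had 74.5, 95.6 and 108 CPM in sham JV001 against 114, 141 and 137 CPM in sham saline. Ventricular markers summed to 82800 to 88500 CPM in sham JV001 and 76800 to 103000 CPM in sham saline.

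Nuclear genes of energy metabolism had medians just under 0. Fatty acid genes had a median of -0.08 (6 of 28 positive). Of them Pdk4 alone had an unadjusted p under 0.05, where 1.61% of all genes were higher at that p. The medians were -0.12 for glycolysis (3 of 23 positive), -0.09 for the citric acid cycle (1 of 19), -0.08 for the nuclear respiratory chain (7 of 36) and -0.13 for mitochondrial ribosomes (3 of 22). Without sham saline library 1 all of these medians, fatty acid genes included, were -0.16 to -0.23, and without sham saline library 2 they were -0.07 to -0.000182. Cd36, the fatty acid transporter, was apart and higher, at 1450, 1330 and 1580 CPM in sham JV001 against 1250, 1100 and 1290 CPM in sham saline (0.26 ± 0.16). Mitochondrial genome transcripts were positive in 12 of 13 (median 0.21, leave-out range 6.8e-05 without sham saline library 2 to 0.62 without sham saline library 1). ATP6 had 1760, 1050 and 1190 CPM in sham JV001 against 830, 383 and 507 CPM in sham saline (1.22 ± 0.41), while COX1 had 139000, 113000 and 109000 CPM in sham JV001 against 165000, 82100 and 77700 CPM in sham saline. COX1 in sham saline library 1 was thus above every JV001 library. Cytosolic ribosome genes were positive in 21 of 28 with a median of 0.02 (leave-out range 0.004 to 0.05).

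**Figure D4:**
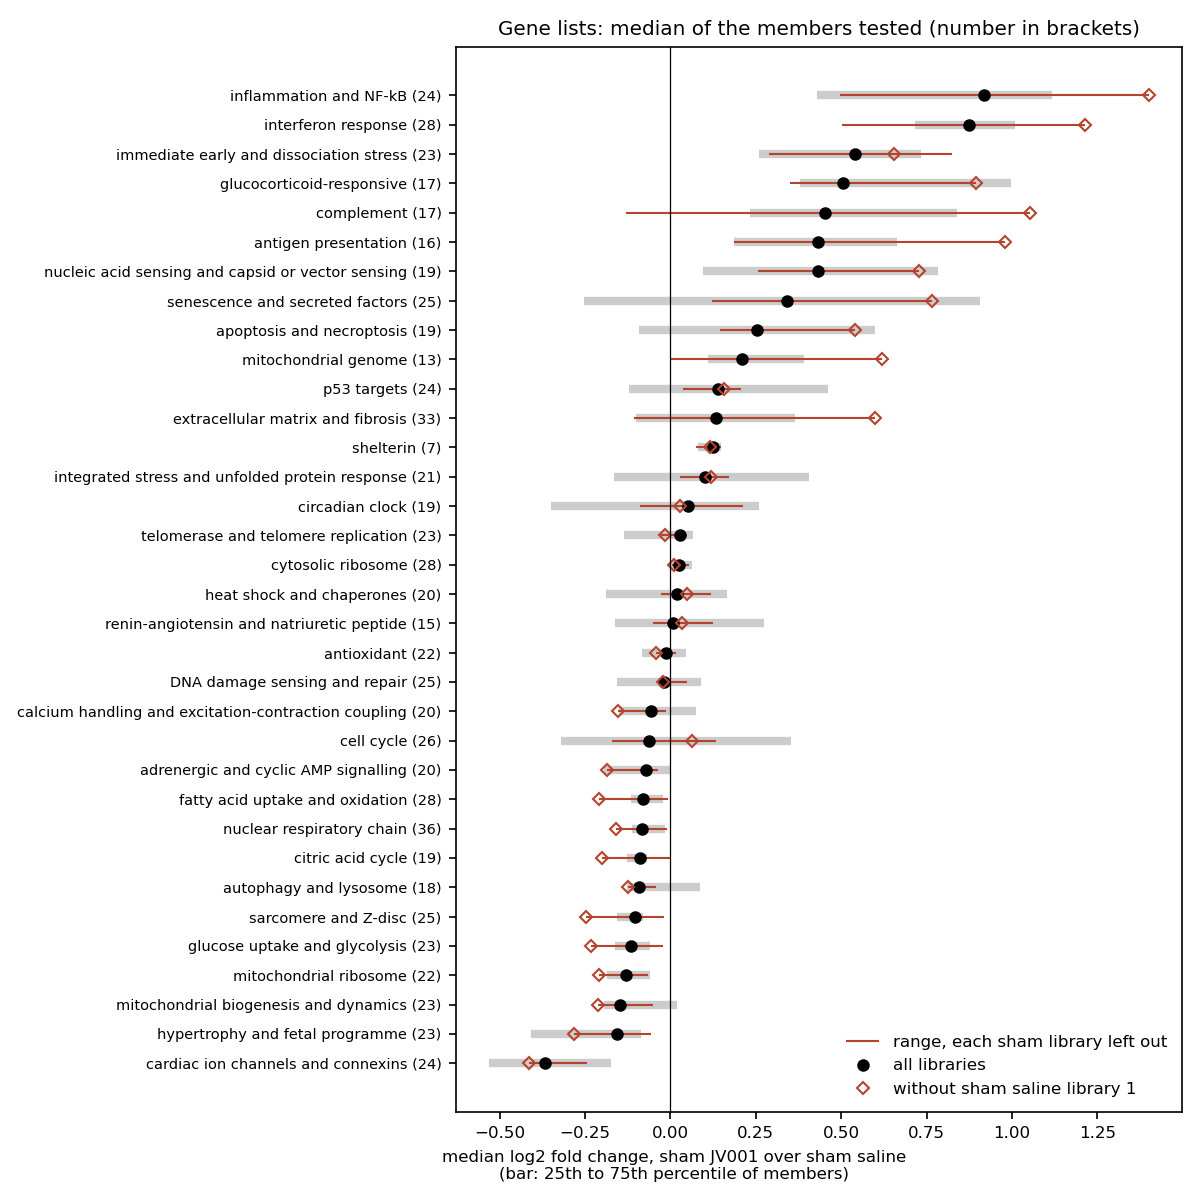
Median log2 fold change, sham JV001 over sham saline, of 34 gene lists (number of genes tested in brackets); black dots use all libraries, grey bars run from the 25th to the 75th percentile of the members, thin red lines span the medians with each sham library left out in turn and open diamonds leave out sham saline library 1. Inflammation and interferon lists lie highest at 0.92 and 0.87, ion channels lowest at -0.37, and leaving out sham saline library 1 moves most immune, matrix and mitochondrial genome medians to the right.

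Matrix and fibrosis genes were positive in 23 of 33 (median 0.13, leave-out range -0.11 without sham saline library 3 to 0.6 without sham saline library 1), with 0 at an unadjusted p under 0.05. Timp3, an inhibitor of matrix proteases, was apart at 376, 288 and 195 CPM in sham JV001 against 187, 74.5 and 112 CPM in sham saline (1.2 ± 0.55). The summed CPM of the list, 2100, 2070 and 1420 in sham JV001 against 2400, 1180 and 1070 in sham saline, ran with the fibroblast and endothelial markers given above; their part in it was not tested. Of 15 genes of the renin-angiotensin and natriuretic peptide systems 8 were positive (median 0.01, leave-out range -0.05 to 0.13). Nr3c2, the mineralocorticoid receptor, was apart and lower at 16.4, 13.4 and 14.2 CPM in sham JV001 against 20, 17.7 and 27.2 CPM in sham saline (-0.56 ± 0.19). Of 26 cell cycle genes 12 were positive (median -0.06, leave-out range -0.17 to 0.13). The 2 with an unadjusted p under 0.05 were lower, where 1.23% of all genes were lower at that p. Mcm2, a subunit of the replicative helicase, had 4.36, 5.64 and 6.39 CPM in sham JV001 against 7.26, 7.88 and 8.01 CPM in sham saline. The G1 kinase gene Cdk4 had 24.8, 24.0 and 23.6 CPM in sham JV001 against 30.1, 27.7 and 32.3 CPM in sham saline.

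The JV001 difference in sham hearts was then set against that in CKD hearts, CKD JV001 over CKD saline, which shares no library with it. No gene passed the test of the difference between these effects (0 of 15004, 0%, by edgeR; smallest adjusted p 0.8404; 567 genes, 3.78%, at an unadjusted p under 0.05), while DESeq2 called 2. Of the 426 genes with an unadjusted p under 0.05 in sham hearts, 299 (70.2%) had the same sign in CKD hearts, beside 10104 of all 15004 genes (67.3%). In 43 of the 426 (10.1%) the CKD contrast also had an unadjusted p under 0.05 in the same direction. Of all genes, 18% had such a p in the CKD contrast in either direction. The share of all genes in the same direction was not computed, so these 2 shares cannot be compared.

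Of the 20 named genes, 11 had the same sign in CKD hearts, 6 of the 10 higher and 5 of the 10 lower. Smc4 was close in size in both, with 11, 11.2 and 13.3 CPM in CKD JV001 against 7.37, 7.92 and 9.06 CPM in CKD saline (log2 fold change 0.54 ± 0.16, beside 0.65 ± 0.16 in sham hearts). Tmem100 did not follow: it had 10.4, 9.34 and 10.2 CPM in CKD JV001 against 12.1, 13.0 and 9.77 CPM in CKD saline. Its 2 effects differed with an unadjusted p of 0.00034 by edgeR (adjusted p 0.84) and an adjusted p of 0.034 by DESeq2. Pdk4 had 156, 147 and 272 CPM in CKD JV001 against 358, 375 and 220 CPM in CKD saline (-0.73 ± 0.48, beside 1.83 ± 0.49 in sham hearts). Magi3 was lower in both settings, at 25.9, 31.1 and 36.2 CPM in CKD JV001 against 42.5, 42.0 and 33.8 CPM in CKD saline, where the groups overlapped.

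**Figure D5:**
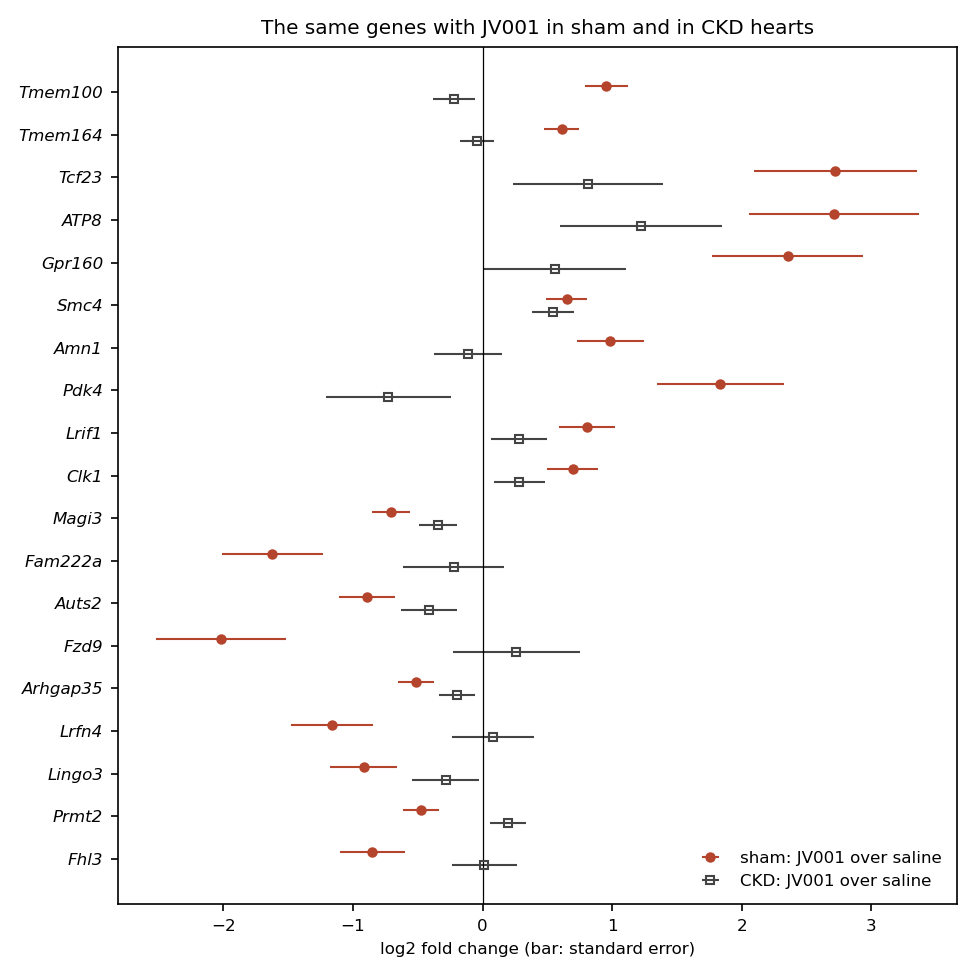
Log2 fold change (x axis, bar: standard error) of 19 of the 20 genes with JV001 over saline in sham hearts (red circles) and in CKD hearts (open squares). Smc4 lies near 0.6 in both, whereas Tmem100 and Pdk4 have opposite signs.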

How the data were processed

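Read counts per gene were deposited as one table of 12 libraries with 22584 gene symbols; a second deposited table by the authors gives FPKM of the same genes. The submitters' processing notes list GRCm39 as the build and, without versions, the tools HTSeq, HISAT2 and fastp; the annotation and whether strand was used are not stated there. Per the labels' protocols, libraries were made from 1.3 ug of total RNA. Library totals were 32684117 to 37000337 reads in the sham groups.

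The counts were tested in R 4.3.3 with edgeR 4.0.16 (quasi-likelihood, TMM, 4 group means over 12 libraries, filterByExpr with a minimum count of 10, which left 15004 genes) and Benjamini-Hochberg adjustment at 0.05. SE is the log2 fold change divided by the square root of F. The scripts were tested on simulated data. DESeq2 1.42.0 and limma 3.58.1 (voom with library weights on counts, and log2(FPKM + 1 or 0.1)), other scaling and filters, and each library left out were alternatives. Named genes were, per direction, 10 by smallest p where none passed (at least 1 CPM in a group; LOC, Gm and Rik symbols left out), all shelterin genes and Tert, up to 4 genes per list by smallest p, the 10 most abundant, and markers as values; exceptions are stated, and 1 of the 20 genes with the smallest p is counted but not reported here. The contrast, the 52 gene lists (867 of 879 symbols found) and the markers were chosen with earlier results of these data known, and their counts are descriptions. Sample columns not used numbered 0. Promoters were matched by symbol to RefSeq.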

Additional observations from a re-analysis of the deposited data

How the results depend on the processing

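The count of genes called between sham JV001 and sham saline stayed at 0 by edgeR under other scaling, filters, a robust spread, the sham libraries alone and every library left out (0 to 0). It was 3 with DESeq2, 10 with limma voom and library weights (7 higher and 3 lower, Magi3, Tmem100, Tmem164 and Clk1 among them), 3 with limma on log2(FPKM + 1) without a filter, and 37 (23 higher and 14 lower) with DESeq2 on the 6 sham libraries, an alternative chosen after seeing the data, as was voom with library weights on the same 6, which called 0. For the difference between the sham and CKD effects it was 2 with DESeq2 (Tmem100 and Xpnpep2, which is named here for its call) and 20 with voom, and 0 otherwise. The cause of these gaps was not tested. The number of genes at an unadjusted p under 0.05, 426, ranged from 249 to 894 without single sham libraries (894 without sham saline library 1), and was 2814 with voom weights and 1589 without replicate 3 of both CKD groups. Whether replicate numbers pair the libraries could not be decided with 3 libraries per group. Deviations of same-numbered sham libraries correlated at 0.0436, -0.0772 and 0.216, and those of other pairs at -0.232 to 0.198. JV001 libraries 1 and 3 correlated best with the saline library of their own number, and JV001 library 2 with saline library 1. With the replicate block, edgeR called 0 genes with 12 libraries (376 at an unadjusted p under 0.05). It called 0 with the 6 sham libraries (1252 at that p, beside 949 without the block).

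Of 85 genes named, with 1673 values over 20 alternatives, 1654 kept direction and side of the threshold, and 7 passed it under DESeq2 or voom. Signs turned in 8 genes when single libraries were left out: the log2 fold change ranged from -0.0264 to 0.149 for Terf2, -0.0852 to 0.595 for Pot1b, -0.012 to 0.119 for Terf2ip, -0.172 to 0.107 for Tnnt2, -0.0236 to 0.584 for COX1, -1.81 to 0.145 for Arntl, -1.71 to 0.089 for Ciart and -0.0599 to 0.206 for Ddx3y. With voom it was -0.000824 for Terf2 and 0.366 for Arntl. Of 1039 list medians, 32 moved by more than the spread between libraries, 8 of them without sham saline library 1. Depth limits genes of a few reads, such as Tert and Tlr9.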

Other observations

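Several clock genes differed widely among the sham saline libraries. Arntl (BMAL1), the activator at the core of the circadian loop, had 4.42, 5.02 and 6.03 CPM in sham JV001 against 28.8, 7.85 and 1.45 CPM in sham saline. Per2, a repressor of the loop, had 46.8, 39.3 and 18.9 CPM in sham JV001 against 4.92, 12.9 and 26.5 CPM in sham saline. In the saline libraries the order of Arntl was thus opposite to that of Per2, and Ciart, another repressor, had 6.28, 6.48 and 5.21 CPM in sham JV001 against 2.06, 9.2 and 29.9 CPM in sham saline. The JV001 libraries stayed close together for Arntl and Ciart. Of 19 clock genes tested, 10 had a positive log2 fold change (median 0.05, and -0.09 to 0.21 when each sham library was left out in turn) and 0 had an unadjusted p under 0.05 by edgeR. The groups were apart in 1 of the 19, where 5.69% of all genes were apart and higher. That gene was Rora, a nuclear receptor that activates Arntl, with 29.9, 22.7 and 22.2 CPM in sham JV001 against 20.7, 21.0 and 15.9 CPM in sham saline. The time of day of collection is not given in the sources used here.

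Some single markers are given here with their values. Plin4, a lipid droplet coat protein listed with fat cells, had 391, 311 and 309 CPM in sham JV001 against 220, 252 and 251 CPM in sham saline (log2 fold change 0.48 ± 0.20 SE), while the defining fat cell genes Adipoq and Plin1 had at most 10 and 18 reads in a sham library. Hcn4, the pacemaker channel gene, had 3.96, 7.04 and 6.67 CPM in sham JV001 against 8.71, 7.74 and 11.2 CPM in sham saline (-0.65 ± 0.29). Its conduction system list was also mostly negative (5 of 7 tested, median -0.46). Neutrophil, T and NK cell and B cell markers summed to at most 8.27, 1.49 and 5.0 CPM in sham JV001. In sham saline their highest sums were 62.1, 2.63 and 3.16 CPM. The Y-linked gene Ddx3y had 52.8, 48.8 and 56.3 CPM in sham JV001 against 38.4, 56.2 and 53.2 CPM in sham saline, and Xist had at most 4 reads in each.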
